A study of Mus musculus with 48 samples.

Results

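The genes described here are 10 members of the antigen presentation machinery, taken by symbol from the 23930 genes of a table of liver read counts. They are the class II chains H2-Aa, H2-Ab1 and H2-Eb1, the class II chaperone Cd74, the class II transactivator Ciita, the class I heavy chains H2-K1 and H2-D1, the class I light chain B2m, the peptide transporter subunit Tap1 and the class I transactivator Nlrc5. The livers came from mice given phosphate-buffered saline (PBS) or 1 of 3 modified gapmer antisense oligonucleotides directed at Scarb1: LX-A1656, LX-A2003 or LX-A3928. They were sampled at 24, 72 or 168 h, that is on day 1, 3 or 7, with time counted from the first administration. Each of the 12 groups had 4 replicate libraries, 48 in all. A gapmer is an oligonucleotide with a DNA centre between modified ends, which directs ribonuclease H to the matching RNA. Scarb1 encodes a lipoprotein receptor of hepatocytes and sinusoidal endothelium. The sources used here do not give the dose, the number of administrations, the strain, sex and age of the mice, or the sequences of the oligonucleotides. No oligonucleotide without a match to Scarb1 is among the groups, so changes that go with the loss of Scarb1 and changes that go with the oligonucleotides themselves cannot be told apart. The labels do not tie replicates to separate animals, and the p-values reflect only how far these libraries spread, which may be technical.

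Class I molecules pair a polymorphic heavy chain with B2m and carry peptides that the immunoproteasome cuts and the Tap1 and Tap2 transporter moves into the endoplasmic reticulum. Nearly all nucleated cells make them, hepatocytes and sinusoidal endothelium included. Class II molecules are pairs of an alpha and a beta chain, escorted by the invariant chain Cd74, and in liver they are known mainly from dendritic cells, B cells, Kupffer cells and other macrophages. The transactivators Ciita and Nlrc5 do not bind DNA themselves but act through factors assembled on a conserved promoter module, the X and Y boxes. Interferon gamma is a known inducer of both pathways.

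By the counts, 8 of the 10 members passed the filter on low counts and were tested beside 12672 genes in all. H2-Eb1, with 12 counts over the 48 libraries, and Nlrc5, with 82, were not tested. H2-Ab1 was tested on 186 counts. The other 7 had between 1675 counts (Ciita) and 1623023 counts (B2m). Each gene was read through an amplicon of a fixed panel, so levels below compare 1 gene across libraries and never 2 genes with each other. Levels are counts per 1000000 (CPM) after trimmed-mean scaling.

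Library totals ran from 8140065 to 17191129 counts, with a median of 10659453. Scarb1, the target, averaged 272, 304 and 320 CPM in PBS livers at 24, 72 and 168 h and between 4.42 and 48.1 CPM in the 9 oligonucleotide groups. The 5 hepatocyte markers summed to at least 22873 CPM in every library of this liver series. LX-A3928 replicate 3 at 168 h stood apart from its group. The chi-square per degree of freedom between its counts and those of replicates 1, 2 and 4 was 141, 232 and 228, against 15.0 to 88.2 among those 3. Its 5 hepatocyte markers summed to 77574 CPM, against 22873 to 33002 CPM in the other 3 libraries of the group. LX-A3928 replicate 4 at 72 h had a hepatocyte sum of 84793 CPM, against 51599 to 54397 CPM in its group. Results that rest on either library are given with and without it.

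H2-Aa, H2-K1, H2-D1 and Tap1 lie on chromosome 17 of the mouse genome (GRCm38, GENCODE vM21). H2-Aa spans 34282744 to 34287823 on the minus strand and H2-K1 spans 33996017 to 34000347 on the minus strand. Tap1 spans 34187553 to 34197225 and H2-D1 spans 35262730 to 35267499, both on the plus strand. H2-Ab1 (34257689 to 34269419) and H2-Eb1 (34305867 to 34316674) lie on the plus strand of the same chromosome. B2m (2:122147686-122153083) and Ciita (16:10480059-10528418) lie elsewhere on the plus strand, as do Cd74 and Nlrc5. The promoters are shown because the X and Y boxes, on which the transactivators among the members act, can be read in them. Their part in the changes below was not tested. Each line gives the 250 bases before the RefSeq start (GRCm38.p6), 5′ to 3′ on the gene's own strand, for 5 of the 6 members that RefSeq's promoter table holds. The intervals are chr17:34287824-34288073 for H2-Aa, chr2:122147437-122147686 for B2m, chr17:34000348-34000597 for H2-K1 (the more upstream of 2 starts), chr17:35262844-35263093 for H2-D1 and chr17:34187306-34187555 for Tap1. Capitals mark TGACG (the X2 box core), CCAAT or its reverse ATTGG (the Y box core), AANNGAAA (a motif of interferon regulatory factors) and the NF-kappa B consensus, each on either strand.
H2-Aa: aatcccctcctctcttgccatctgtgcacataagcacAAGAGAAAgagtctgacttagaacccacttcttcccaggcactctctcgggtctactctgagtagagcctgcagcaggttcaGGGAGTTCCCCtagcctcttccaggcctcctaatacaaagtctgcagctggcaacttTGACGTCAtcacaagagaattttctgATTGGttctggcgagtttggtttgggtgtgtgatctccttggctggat
B2m: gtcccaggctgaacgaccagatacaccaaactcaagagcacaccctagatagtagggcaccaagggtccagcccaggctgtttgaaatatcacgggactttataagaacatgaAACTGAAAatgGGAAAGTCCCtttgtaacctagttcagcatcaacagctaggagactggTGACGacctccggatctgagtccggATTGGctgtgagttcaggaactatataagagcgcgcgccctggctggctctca
H2-K1: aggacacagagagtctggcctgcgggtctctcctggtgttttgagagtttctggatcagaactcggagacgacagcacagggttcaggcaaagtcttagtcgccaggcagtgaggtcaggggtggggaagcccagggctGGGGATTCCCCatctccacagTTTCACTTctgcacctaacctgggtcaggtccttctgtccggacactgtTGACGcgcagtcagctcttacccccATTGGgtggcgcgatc
H2-D1: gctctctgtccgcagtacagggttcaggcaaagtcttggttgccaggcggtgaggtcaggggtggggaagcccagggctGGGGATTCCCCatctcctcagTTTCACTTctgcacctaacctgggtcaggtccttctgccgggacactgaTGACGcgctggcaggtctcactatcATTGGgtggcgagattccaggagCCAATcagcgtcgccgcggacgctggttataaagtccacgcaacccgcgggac
Tap1: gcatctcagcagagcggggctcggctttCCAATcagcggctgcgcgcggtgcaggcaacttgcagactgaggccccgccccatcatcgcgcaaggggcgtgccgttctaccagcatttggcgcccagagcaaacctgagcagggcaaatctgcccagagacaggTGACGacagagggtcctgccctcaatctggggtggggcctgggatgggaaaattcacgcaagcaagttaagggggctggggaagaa

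In H2-Aa, B2m, H2-K1 and H2-D1 the lines share 1 arrangement: TGACG followed on the same strand by ATTGG. The distance from start to start was 26 bases in H2-Aa and 25 bases in B2m, H2-K1 and H2-D1, and TGACG began at positions -74, -78, -41 and -101 relative to the start, respectively. Over 32851 mouse promoters of 300 bases (250 before and 50 after the start), 78 (0.237%) held TGACG and ATTGG 24 to 27 bases apart on 1 strand. That window of distances was chosen after the members' promoters had been read. Neither Tap1 nor H2-Eb1, the remaining member in the table, held it. Over the same 300 bases and on either strand, CCAAT was found in 6 of 6 members (37.4% of all promoters), TGACG in 5 (20.8%), AANNGAAA in 4 (23.9%) and the NF-kappa B consensus in 4 (8.46%). TTCNNNGAA, the gamma-activated sequence, was found in 0 of 6 (8.30%). In H2-Aa 2 matches to TGACG overlap in the palindrome TGACGTCA, and overlapping matches to the NF-kappa B consensus are marked as 1 run. A match of letters is a description of sequence, not of binding. H2-K1 and H2-D1 are close paralogs: their longest coding transcripts matched at 88.2% of 1510 aligned positions and their promoters at 90.4% of 228, so reads could be assigned to the wrong one of the pair. The sources used here do not give the positions of the amplicons.

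At 24 h none of the 8 tested members was called against PBS with any oligonucleotide. At 72 h members rose with each of them, and at 168 h more of them rose. With LX-A1656 the larger count at 168 h rested on H2-Ab1, which had few counts. No tested member was lower than PBS at an adjusted p under 0.05 in any of the 9 comparisons. Throughout, a gene was called where edgeR's quasi-likelihood F test gave a Benjamini-Hochberg adjusted p under 0.05 over 12672 genes.

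At 24 h, the share of all tested genes called was 2.86% for LX-A1656, 2.09% for LX-A2003 and 3.26% for LX-A3928. DESeq2 also called 0 members at this time. At an unadjusted p under 0.05, 2 members stood above PBS with LX-A1656 (H2-Aa, log2 fold change 0.53, and Cd74, 0.37), beside 1554 genes in all. The count was 0 with LX-A2003 and 0 with LX-A3928, beside 1585 and 1838 genes. The log2 fold changes of the 7 well-counted members ran from 0.03 to 0.53, from -0.06 to 0.51 and from -0.21 to 0.32 in that order of oligonucleotides.

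At 72 h, 5 of 8 members rose with LX-A1656, where 24.7% of all genes rose and 23.4% fell. With LX-A2003 2 of 8 rose (5.48% of all genes rose and 6.55% fell), a count that was 5 with only the compared groups in the fit and 1 with library totals or without any 1 of 5 single libraries (PBS replicates 3 and 4, LX-A2003 replicates 2, 3 and 4). With LX-A3928 3 of 8 rose (4.47% rose and 5.33% fell). H2-Aa and Cd74 were among them in each comparison. Leaving out 1 library gave 2 to 3 members with LX-A3928. Its H2-K1 call was lost without any 1 PBS library or without LX-A3928 replicate 4, and Ciita passed without that replicate. The median log2 fold change of the 8 members was 1.07, 0.43 and 0.66 for LX-A1656, LX-A2003 and LX-A3928, beside 0.05, 0.02 and 0.02 over all genes. Without H2-Ab1 it was 1.10, 0.42 and 0.56.

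At 168 h, 6 of 8 rose with LX-A1656 (34.1% of all genes rose and 29.7% fell), 7 of 8 with LX-A2003 (29.8% and 25.3%) and 8 of 8 with LX-A3928 (27.3% and 20.7%). Without LX-A3928 replicate 3 the last count was 7, all but B2m. The medians were 1.11, 1.63 and 1.44, beside 0.10, 0.04 and 0.08 over all genes. These counts and medians include H2-Ab1, which had few counts and passed the filter only through oligonucleotide libraries at 168 h. Without H2-Ab1 the medians were 1.07, 1.31 and 1.32, so LX-A2003 and LX-A3928 were then nearly equal. These comparisons share the PBS libraries of their time. The scaling bears on them: with library totals in place of trimmed-mean scaling the median of all genes moved to 0.27 for LX-A1656 at 72 h and to 0.56, 0.45 and 0.39 for LX-A1656, LX-A2003 and LX-A3928 at 168 h. The genes that rose were then 4294 of 6447 called for LX-A1656 at 72 h, against 3134 of 6102. At 168 h they were 6469 of 8772 against 4326 of 8092 for LX-A1656, 5865 of 7550 against 3775 of 6987 for LX-A2003, and 5144 of 6602 against 3464 of 6087 for LX-A3928.

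**Figure D1:**
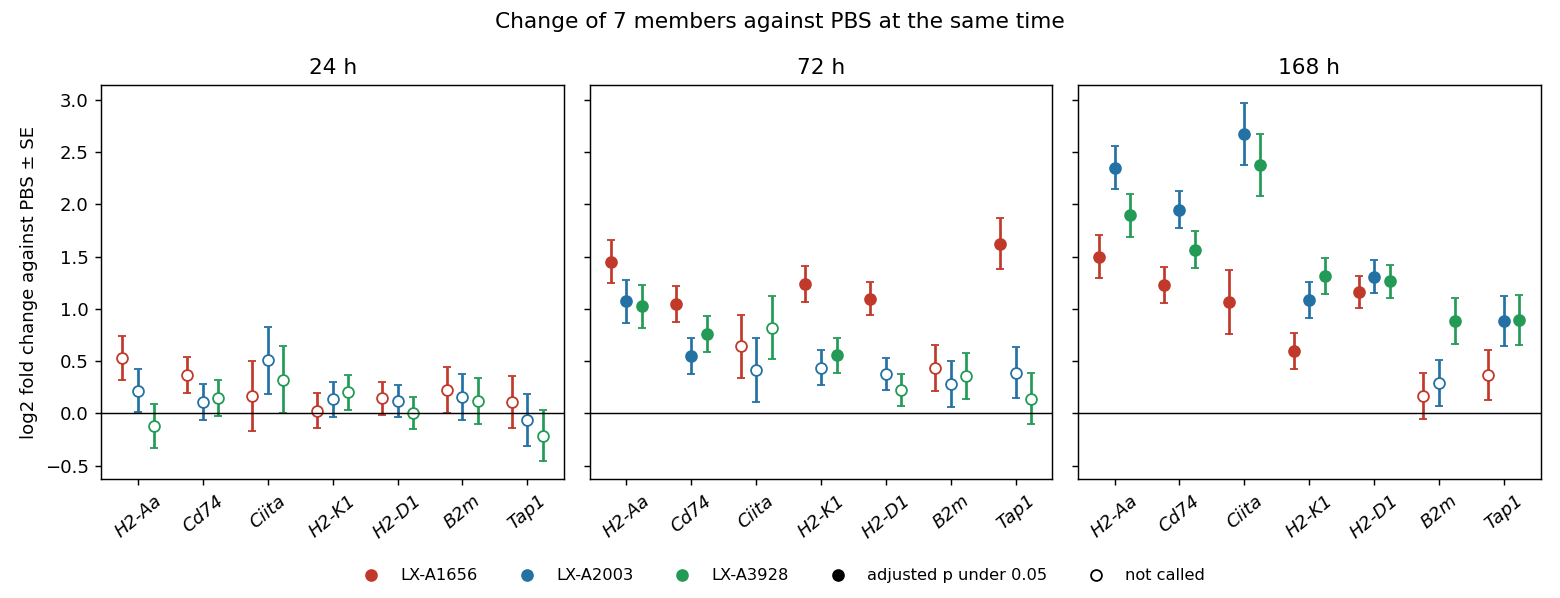
Log2 fold change against PBS of the same time (vertical axis, bars ± SE of the fit) for 7 members, by oligonucleotide and time. Filled points passed an adjusted p under 0.05; none is filled at 24 h, and H2-Aa and Cd74 are filled for all 3 oligonucleotides at 72 and 168 h.

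Among the class II genes, H2-Aa, the alpha chain of I-A, was at 16.7, 15.7, 10.4 and 13.5 CPM in the PBS livers at 72 h. With LX-A1656 at that time the libraries were at 39.4, 46.9, 39.3 and 28.1 CPM. With LX-A2003 they were at 32.6, 26.9, 28.2 and 30.5 CPM, and with LX-A3928 at 30.3, 27.7, 22.9 and 33.3 CPM. Each of the 12 oligonucleotide libraries was above each of the 4 PBS libraries. The log2 fold changes were 1.45 ± 0.21 (SE, adjusted p = 9.8e-08), 1.07 ± 0.21 (adjusted p = 0.000153) and 1.02 ± 0.21 (adjusted p = 0.000416), or 2.73-, 2.10- and 2.03-fold.

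By 168 h H2-Aa was higher again. PBS livers held 22.0, 14.1, 23.7 and 10.8 CPM, LX-A1656 livers 54.2, 34.3, 50.2 and 60.7 CPM, LX-A2003 livers 87.9, 99.2, 95.4 and 77.1 CPM, and LX-A3928 livers 58.1, 52.3, 85.8 and 66.4 CPM. The PBS libraries stayed below all others, and the LX-A2003 libraries were the highest as a group, overlapping only with replicate 3 of LX-A3928. H2-Aa rose by 1.50 ± 0.20 on the log2 scale (adjusted p = 1.95e-08), 2.35 ± 0.21 (adjusted p = 3.89e-13) and 1.90 ± 0.21 (adjusted p = 1.92e-10). The LX-A2003 mean was 5.10-fold above PBS on the fitted scale. In a bulk liver sample, more cells of a type and more RNA per cell cannot be told apart, here and for every gene below.

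Cd74 (18:60803848-60812652), the invariant chain, followed the same order of groups at 168 h. Its levels were 101, 119, 106 and 105 CPM with PBS, 269, 207, 258 and 277 CPM with LX-A1656, 397, 485, 403 and 382 CPM with LX-A2003, and 392.2, 232.1, 265.9 and 387.2 CPM with LX-A3928. No oligonucleotide library reached down to the PBS range. Cd74 rose by 1.23 ± 0.17 on the log2 scale (adjusted p = 4.94e-08), 1.95 ± 0.18 (adjusted p = 9.06e-13) and 1.57 ± 0.18 (adjusted p = 4.48e-10). At 72 h the PBS libraries were at 117, 139, 97.1 and 92.3 CPM and the means were 230 ± 47.7, 162 ± 33.9 and 188 ± 31.6 CPM (SD, n = 4) for LX-A1656, LX-A2003 and LX-A3928. LX-A2003 replicate 1, at 117 CPM, lay within the PBS range, and the remaining 11 oligonucleotide libraries lay above it. The 72 h log2 fold changes were 1.05 ± 0.17 (adjusted p = 2.23e-06), 0.55 ± 0.17 (adjusted p = 0.0282) and 0.76 ± 0.17 (adjusted p = 0.00199). The LX-A2003 call at 72 h was lost without any 1 of PBS replicates 3 and 4 or LX-A2003 replicates 2, 3 and 4 (adjusted p = 0.056 to 0.14).

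Ciita, which switches on class II transcription, had few counts but the largest fold change of the well-counted members at 168 h with LX-A2003 and LX-A3928. PBS libraries were at 1.51, 1.76, 0.942 and 1.14 CPM. LX-A1656 libraries were at 2.60, 3.10, 3.39 and 2.25 CPM, LX-A2003 libraries at 7.18, 11.6, 8.47 and 7.59 CPM, and LX-A3928 libraries at 6.97, 7.01, 5.96 and 8.28 CPM. The LX-A1656 libraries lay between PBS and the other 2 oligonucleotides with no overlap on either side. Ciita rose by 1.07 ± 0.31 on the log2 scale (adjusted p = 0.00244), 2.67 ± 0.30 (adjusted p = 2.65e-10) and 2.38 ± 0.30 (adjusted p = 8.07e-09), or 2.10-, 6.38- and 5.19-fold. At 72 h the means were 1.69 ± 0.307 CPM with PBS and 2.65 ± 0.588, 2.27 ± 0.771 and 3.02 ± 1.50 CPM (SD, n = 4) for LX-A1656, LX-A2003 and LX-A3928. None was called (log2 fold change 0.64, adjusted p = 0.0746, 0.42, adjusted p = 0.463, and 0.82, adjusted p = 0.0785). LX-A3928 passed without its replicate 4 (log2 fold change 1.05, adjusted p = 0.0168) and LX-A1656 without its replicate 3 (0.79, adjusted p = 0.0376).

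**Figure D2:**
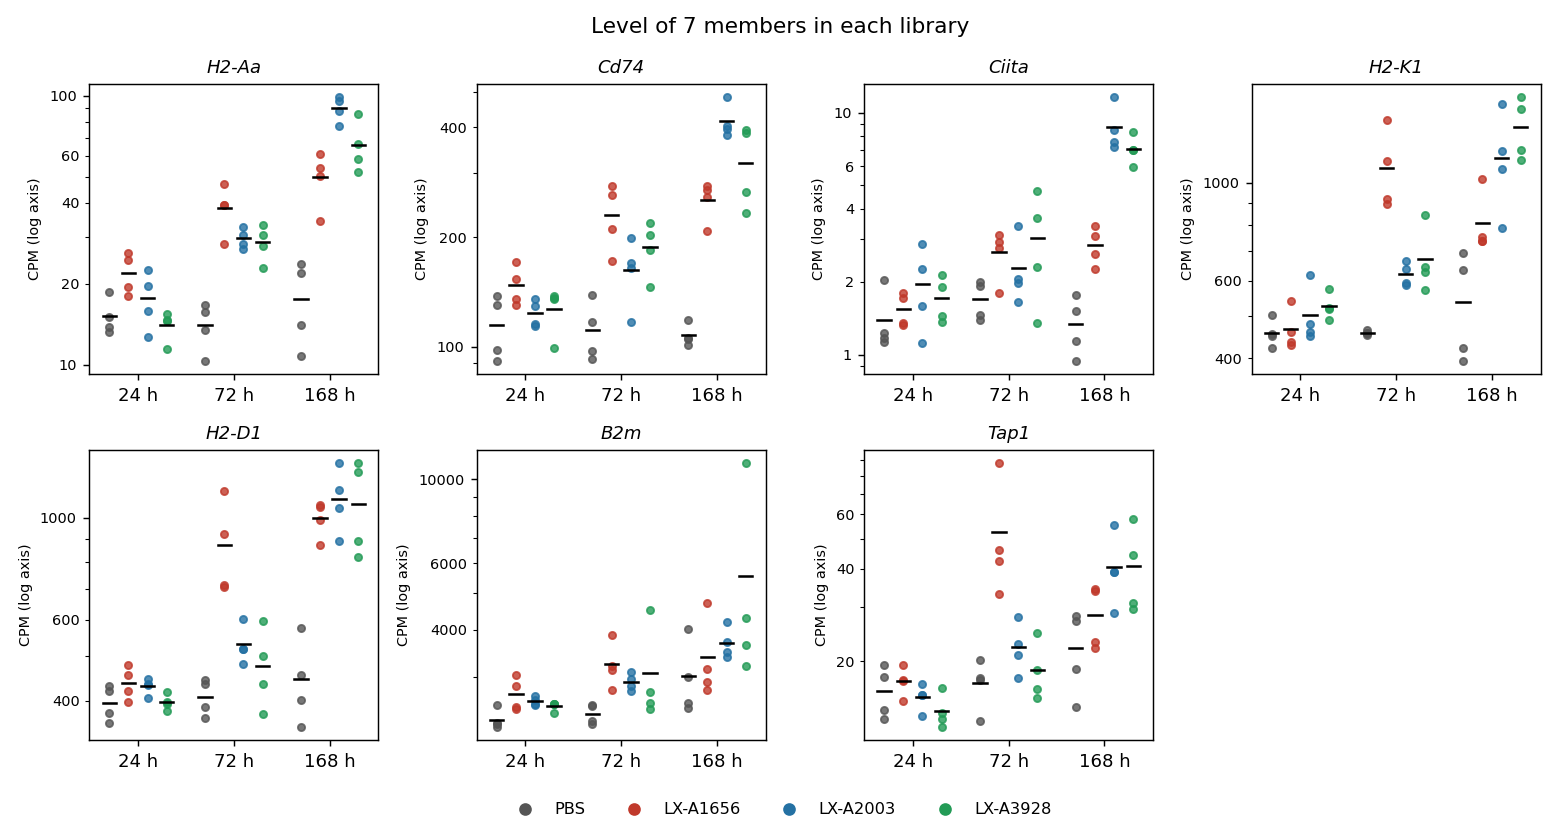
Level of 7 members in each of the 48 libraries (points) with group means (bars), in CPM on a log axis, by time and treatment. H2-Aa, Cd74 and Ciita are highest with LX-A2003 at 168 h, Tap1 with LX-A1656 at 72 h, and 1 LX-A3928 library at 168 h lies far above the rest for B2m.

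The other class II beta chains gave few reads. H2-Ab1, the beta chain partner of H2-Aa, had 10, 6 and 1 counts over the 4 PBS libraries at 24, 72 and 168 h. At 168 h it had 31 counts in the LX-A1656 group, 35 in the LX-A2003 group and 30 in the LX-A3928 group. It was seen in 12 of 12 oligonucleotide libraries at that time and in 1 of 4 PBS libraries. The ratios of depth-scaled counts to PBS were 17.1 (95% exact interval 2.84 to 695), 22.4 (3.77 to 911) and 20.5 (3.41 to 838), intervals that cover counting error only. The size of these ratios rests on the 1 PBS count at 168 h. Mean levels with PBS were 0.262, 0.166 and 0.0259 CPM at 24, 72 and 168 h. The oligonucleotide means at 168 h were 0.531, 0.646 and 0.574 CPM, much nearer to the earlier PBS means. The edgeR test called H2-Ab1 with all 3 oligonucleotides at 168 h (adjusted p = 0.0044, 0.002 and 0.0038). H2-Ab1 passed the filter on low counts only through oligonucleotide libraries of that time. These calls are therefore not independent support for a rise. At 72 h it had 14, 16 and 19 counts against 6, and none was called. H2-Eb1, the beta chain of I-E, had 5 counts over the 12 oligonucleotide libraries at 168 h and 0 over the 4 PBS libraries, too few to compare.

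Nlrc5 (8:94434356-94527272), which acts on class I genes as Ciita does on class II genes, gave too few counts to test at this depth. PBS livers held 5, 2 and 5 counts at 24, 72 and 168 h, and the 12 oligonucleotide livers of each time held 15, 29 and 26. The ratio to PBS furthest from 1 was 4.50 (95% exact interval 1.00 to 41.4) with LX-A1656 at 72 h, from 12 counts against 2. Single libraries had at most 7 counts.

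**Figure D3:**
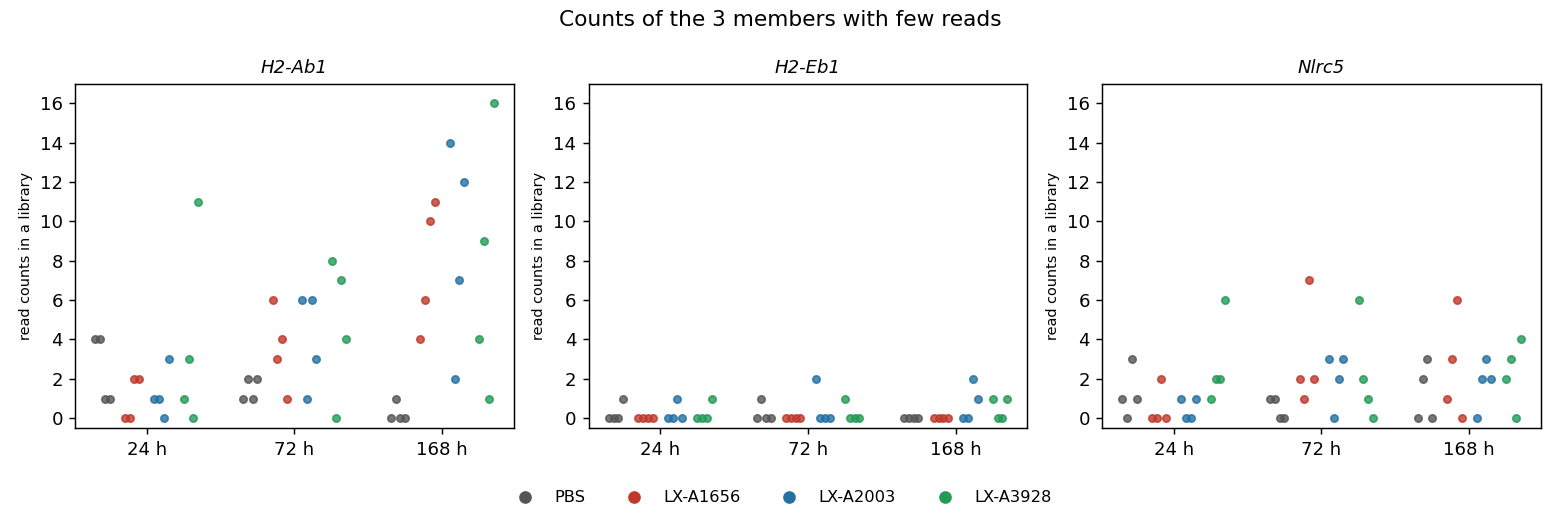
Read counts of H2-Ab1, H2-Eb1 and Nlrc5 in each library (vertical axis, counts, not scaled), by time and treatment. H2-Ab1 is at 0 or 1 in the 4 PBS libraries at 168 h and between 1 and 16 in the 12 others, while H2-Eb1 never exceeds 2 and Nlrc5 never exceeds 7.

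Of the class I heavy chains, H2-K1 was steady in PBS livers at 72 h, with 457, 453, 464 and 456 CPM. LX-A1656 livers held 1386, 916, 1121 and 896 CPM, LX-A2003 livers 638, 585, 663 and 592 CPM, and LX-A3928 livers 571, 628, 644 and 846 CPM. All 12 lay above PBS, and the LX-A1656 libraries lay above all of the others. H2-K1 rose with LX-A1656 (log2 fold change 1.24 ± 0.17, adjusted p = 4.86e-08, 2.36-fold) and LX-A3928 (0.56 ± 0.17, adjusted p = 0.0256). It was not called with LX-A2003 (0.44 ± 0.17, adjusted p = 0.0856). The LX-A3928 call was lost without any 1 PBS library (adjusted p = 0.0529 to 0.0631) or without LX-A3928 replicate 4 (log2 fold change 0.43, adjusted p = 0.147). With only the libraries of the compared groups in the fit, LX-A2003 passed (adjusted p = 0.0018).

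At 168 h H2-K1 was more variable in PBS livers, at 633, 422, 693 and 395 CPM. Levels were 737, 737, 752 and 1018 CPM with LX-A1656, 1073, 1508, 1178 and 790 CPM with LX-A2003 and 1126, 1467, 1185 and 1565 CPM with LX-A3928. All 12 were above the highest PBS library, and all 4 LX-A3928 libraries were above all 4 LX-A1656 libraries. H2-K1 rose by 0.60 ± 0.17 on the log2 scale (adjusted p = 0.00198), 1.09 ± 0.17 (adjusted p = 5.82e-07) and 1.32 ± 0.17 (adjusted p = 1.47e-08).

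H2-D1, the second classical heavy chain, rose at 72 h with LX-A1656 only among the 3 tests. PBS libraries were at 443, 388, 434 and 366 CPM and LX-A1656 libraries at 1146, 709, 921 and 715 CPM, without overlap (log2 fold change 1.10 ± 0.16, adjusted p = 1.19e-07). Means with LX-A2003 and LX-A3928 were 530 ± 51.6 and 476 ± 94.6 CPM (SD, n = 4), with log2 fold changes of 0.38 (adjusted p = 0.114) and 0.22 (adjusted p = 0.439). At 168 h the PBS libraries were at 455, 351, 576 and 402 CPM and the 3 oligonucleotide means were close to each other, at 998 ± 88.8, 1102 ± 179 and 1072 ± 252 CPM. All 12 oligonucleotide libraries, from 822 to 1319 CPM, were above the PBS libraries. H2-D1 rose by 1.16 ± 0.16 on the log2 scale (adjusted p = 1.75e-08), 1.31 ± 0.16 (adjusted p = 1.97e-09) and 1.27 ± 0.16 (adjusted p = 6.09e-09).

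Tap1, the transporter subunit, had its highest group mean at 72 h rather than 168 h. PBS libraries at 72 h were at 17.4, 17.7, 20.2 and 12.8 CPM and LX-A1656 libraries at 88.4, 33.1, 42.2 and 46.2 CPM. Replicate 1 was the highest of the 48, and the 2 groups did not overlap (log2 fold change 1.63 ± 0.24, adjusted p = 2.92e-07, 3.09-fold). The LX-A2003 and LX-A3928 means at 72 h were 22.3 ± 4.30 and 18.7 ± 4.30 CPM (SD, n = 4), and neither was called (log2 fold change 0.39, adjusted p = 0.358, and 0.14, adjusted p = 0.807). At 168 h PBS libraries were at 28.0, 14.2, 27.1 and 18.9 CPM, LX-A1656 libraries at 33.8, 23.2, 22.1 and 34.3 CPM, LX-A2003 libraries at 38.9, 55.4, 39.1 and 28.8 CPM and LX-A3928 libraries at 30.9, 44.4, 29.6 and 57.9 CPM. LX-A1656 overlapped PBS, whereas the lowest LX-A2003 and LX-A3928 libraries lay just above the highest PBS library. Tap1 rose with LX-A2003 (0.88 ± 0.24, adjusted p = 0.00178) and LX-A3928 (0.89 ± 0.24, adjusted p = 0.00194) and was not called with LX-A1656 (0.36 ± 0.24, adjusted p = 0.182). With library totals, LX-A1656 passed as well (0.84, adjusted p = 0.0014).

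B2m, the light chain that every class I heavy chain needs, was called in 1 of the 6 comparisons with PBS at 72 and 168 h. At 72 h the means were 2396 ± 146 CPM with PBS and 3240 ± 457, 2909 ± 145 and 3067 ± 971 CPM (SD, n = 4) for LX-A1656, LX-A2003 and LX-A3928, and none was called (log2 fold changes 0.44, 0.28 and 0.36, lowest adjusted p = 0.101). At 168 h PBS libraries were at 4007, 2487, 2999 and 2552 CPM. LX-A1656 libraries were at 2913, 3151, 2769 and 4718 CPM, LX-A2003 libraries at 3380, 4181, 3494 and 3717 CPM and LX-A3928 libraries at 4299, 3206, 11063 and 3645 CPM. The groups overlapped, and replicate 3 of LX-A3928, the library that stood apart, was alone far above the rest. B2m was called with LX-A3928 (0.88 ± 0.22, adjusted p = 0.000956), but without that replicate the log2 fold change was 0.30 (adjusted p = 0.127). It was not called with LX-A1656 (0.17, adjusted p = 0.515) or LX-A2003 (0.29, adjusted p = 0.261). With library totals it passed with LX-A1656 at 72 h (0.65, adjusted p = 0.00177) and at 168 h (0.63, adjusted p = 0.0014) and with LX-A2003 at 168 h (0.72, adjusted p = 0.00046).

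The oligonucleotides were compared with each other at each time, 9 pairs in all. The sources used here do not say how their structures differ. At 24 h 0 members were called in any pair, where 0.284% of genes were called for LX-A2003 against LX-A1656, 2.90% for LX-A3928 against LX-A1656 and 0.150% for LX-A3928 against LX-A2003. DESeq2 called 0 as well, and at an unadjusted p under 0.05 the counts were 0, 1 and 0. The difference nearest to a call was that of H2-Aa, lower with LX-A3928 than with LX-A1656 by -0.65 (95% interval -1.06 to -0.23, adjusted p = 0.0749).

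At 72 h Tap1, H2-K1 and H2-D1 were higher with LX-A1656 than with either of the others, while B2m was not called in either pair (log2 differences -0.16, adjusted p = 0.624, and -0.08, adjusted p = 0.802). Against it, 4 members were lower with LX-A2003, where 18.0% of all genes were lower. They were Tap1 (log2 difference -1.24 ± 0.24, adjusted p = 4.88e-05), H2-K1 (-0.80, adjusted p = 0.000174), H2-D1 (-0.72, adjusted p = 0.00026) and Cd74 (-0.50, adjusted p = 0.0194). The Cd74 call was lost without LX-A1656 replicate 2 or 3 or LX-A2003 replicate 1 (adjusted p = 0.0626, 0.0941 and 0.112). With LX-A3928 3 members were lower, where 20.1% of all genes were lower: Tap1 (-1.49 ± 0.24, adjusted p = 2.13e-06), H2-D1 (-0.87, adjusted p = 1.26e-05) and H2-K1 (-0.68, adjusted p = 0.000995). H2-Aa differed from LX-A1656 by -0.38 (95% interval -0.78 to 0.02) with LX-A2003 and by -0.43 (-0.83 to -0.03, adjusted p = 0.0812) with LX-A3928, neither called. LX-A3928 against LX-A2003 gave 0 called members (0.718% of all genes), 0 by DESeq2 and 0 at an unadjusted p under 0.05, and the 95% intervals of the 7 well-counted members lay between -0.73 and 0.98.

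At 168 h the called differences from LX-A1656 were opposite to those at 72 h for H2-K1 in both pairs and for Cd74 with LX-A2003. The remaining members called in these pairs at 168 h were not called at 72 h. With LX-A2003 4 members were higher than with LX-A1656, where 18.3% of all genes were higher. They were Ciita (1.60 ± 0.26, adjusted p = 5.07e-06), H2-Aa (0.85 ± 0.20, adjusted p = 0.000694), Cd74 (0.72, adjusted p = 0.00106) and H2-K1 (0.49, adjusted p = 0.0224). The H2-K1 call was lost without LX-A1656 replicate 1, 2 or 3 or LX-A2003 replicate 2 (adjusted p = 0.0605 to 0.166). With LX-A3928 3 members were higher than with LX-A1656 (23.2% of all genes): Ciita (1.31, adjusted p = 7.69e-05), H2-K1 (0.72, adjusted p = 0.000561) and B2m (0.71, adjusted p = 0.00821). Without LX-A3928 replicate 3 B2m differed by 0.14 (adjusted p = 0.538). H2-D1 was not called in either pair, with differences of 0.14 (95% interval -0.17 to 0.46) and 0.10 (-0.21 to 0.42).

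LX-A3928 and LX-A2003 at 168 h did not differ by a called member (8.10% of all genes were called), and 0 were called by DESeq2, although 3 members had an unadjusted p under 0.05. H2-Aa was at -0.45 (95% interval -0.85 to -0.06, adjusted p = 0.146), Cd74 at -0.38 (-0.73 to -0.04, adjusted p = 0.168) and B2m at 0.59 (0.14 to 1.03, adjusted p = 0.0912). B2m passed without LX-A3928 replicate 2 (adjusted p = 0.0124) or replicate 4 (adjusted p = 0.0213). The intervals were -0.80 to 0.21 for Ciita, -0.35 to 0.27 for H2-D1 and -0.46 to 0.48 for Tap1.

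The time course was tested as the difference between an oligonucleotide's effect at 1 time and at the time before. PBS livers themselves gave 0 called members between 24 and 72 h (0.0789% of all genes) and 0 between 24 and 168 h (1.03%), DESeq2 gave the same, and 0 and 1 had an unadjusted p under 0.05. With LX-A1656 5 members grew in effect from 24 to 72 h, where 14.2% of all genes did: Tap1 (1.52, adjusted p = 0.000597), H2-K1 (1.21, adjusted p = 9.1e-05), H2-D1 (0.95, adjusted p = 0.000756), H2-Aa (0.92, adjusted p = 0.0129) and Cd74 (0.68, adjusted p = 0.0295). The Cd74 difference lost its call without any of 8 single libraries (adjusted p = 0.0553 to 0.0802). From 72 to 168 h the effect of LX-A1656 on Tap1 (-1.26, adjusted p = 0.00357) and H2-K1 (-0.64, adjusted p = 0.0361) shrank, where 16.1% of all genes fell in effect. The H2-K1 difference lost its call without any of 10 single libraries (adjusted p = 0.0501 to 0.122).

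With LX-A2003 and LX-A3928 more members were called in the later interval than in the earlier one, although the H2-Aa difference with LX-A3928 was larger in the earlier one. From 24 to 72 h 0 members were called for LX-A2003 (2.71% of all genes, with 0 by DESeq2 and 1 at an unadjusted p under 0.05), and H2-Aa grew for LX-A3928 (1.14, adjusted p = 0.0303), where 0.418% of all genes did. That call was lost without any of 5 single libraries (adjusted p = 0.0523 to 0.0983). From 72 to 168 h the same 5 members grew in effect with each. For LX-A2003, where 15.9% of all genes grew, they were Ciita (2.26, adjusted p = 6.6e-05), Cd74 (1.40, adjusted p = 1.6e-05), H2-Aa (1.28, adjusted p = 0.00055), H2-D1 (0.93, adjusted p = 0.00105) and H2-K1 (0.65, adjusted p = 0.0339). For LX-A3928, where 12.5% of all genes grew, they were Ciita (1.56, adjusted p = 0.00608), H2-D1 (1.04, adjusted p = 0.000399), H2-Aa (0.87, adjusted p = 0.0223), Cd74 (0.81, adjusted p = 0.0124) and H2-K1 (0.76, adjusted p = 0.0157). H2-K1 with LX-A2003 was lost without any of 7 single libraries (adjusted p = 0.0515 to 0.128) and H2-Aa with LX-A3928 without any of 5 (adjusted p = 0.0551 to 0.0708). The 2 series share their PBS libraries.

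Ratios of members within a library do not depend on the scaling between libraries. They are given as descriptions, with differences of mean log2 count ratios from PBS of the same time. The ratio of H2-Aa to H2-D1 differed from PBS by 0.39, 0.08 and -0.12 at 24 h, by 0.38, 0.71 and 0.83 at 72 h and by 0.36, 1.10 and 0.68 at 168 h for LX-A1656, LX-A2003 and LX-A3928. With LX-A1656 it was thus about as far from PBS at 24 h as later. The LX-A1656 libraries overlapped PBS at each time, as did the LX-A3928 libraries at 168 h, whereas the LX-A2003 and LX-A3928 libraries at 72 h lay above PBS. At 168 h with LX-A2003 the ratio was -3.61 ± 0.09 (SD, n = 4), all 4 libraries above the 4 PBS libraries at -4.71 ± 0.36. Tap1 gained on H2-D1 by 0.47 with LX-A1656 at 72 h and differed by -0.79 at 168 h. The 4 libraries at 168 h, from -5.42 to -4.96, lay below the PBS libraries, from -4.63 to -4.02. B2m lost ground to H2-D1 in LX-A1656 livers at both times (-0.65 and -1.02) and in LX-A2003 livers at 168 h (-1.0). The 4 LX-A1656 libraries at 168 h ran from 1.46 to 2.14 and the LX-A2003 libraries from 1.61 to 2.06, all below the PBS libraries at 2.38 to 3.14. The heavy chain thus gained on the light chain in these livers, a ratio that the scaling between libraries does not enter. With LX-A3928 at 168 h the difference from PBS was -0.54, with libraries from 1.28 to 3.64. The highest was replicate 3, the library that stood apart. Replicates 2 and 4 lay below the PBS libraries and replicate 1 at the low end of their range. H2-K1 against H2-D1 was lower than in PBS livers with LX-A1656 at 168 h (-0.55) and differed by -0.22 and 0.09 with LX-A2003 and LX-A3928.

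**Figure D4:**
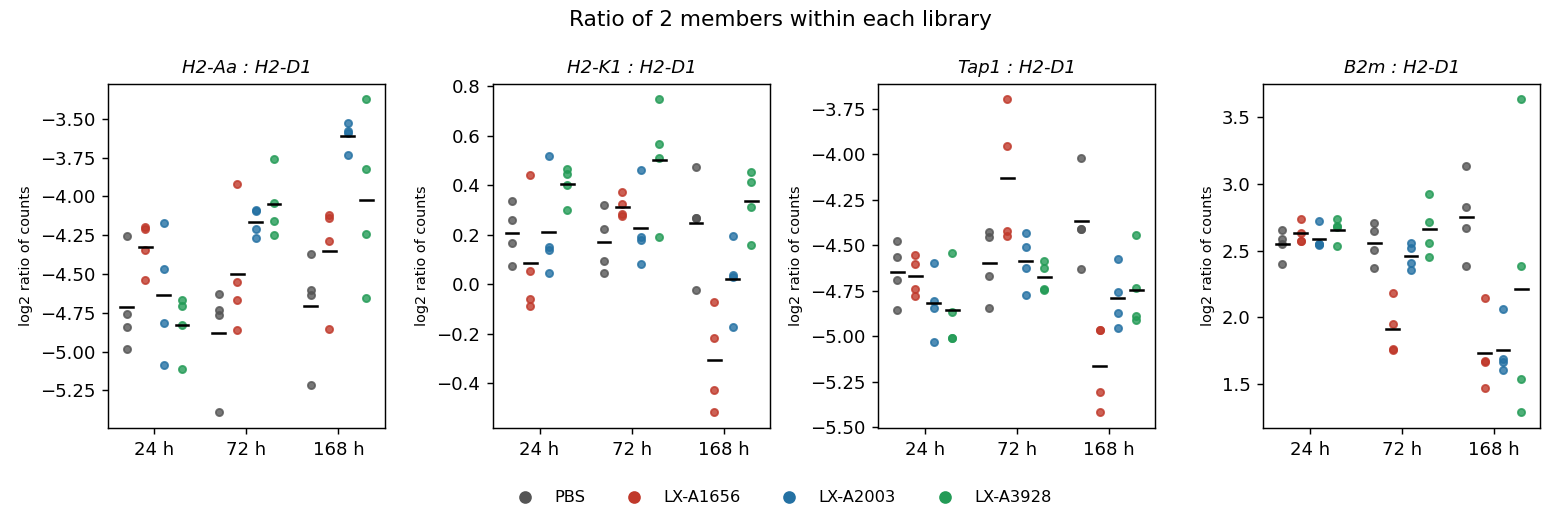
Log2 ratio of the counts of 2 members within each library (points) with group means (bars), by time and treatment. H2-Aa to H2-D1 lies above PBS with LX-A2003 at 168 h, and Tap1 to H2-D1 and B2m to H2-D1 lie below PBS with LX-A1656 at 168 h.

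Other genes of the class I pathway were read from a list of 22, of which 18 had a row and were tested. At 24 h 0 of 18 were called by edgeR with any oligonucleotide, while 3, 0 and 0 had an unadjusted p under 0.05 and DESeq2 called 1, 0 and 0. At 72 h 13, 6 and 5 rose for LX-A1656, LX-A2003 and LX-A3928, where 24.7%, 5.48% and 4.47% of all genes rose, and 0 fell. The 5 became 3 without LX-A3928 replicate 4. The non-classical class I genes led: H2-Q4 rose by 2.34 ± 0.17, H2-T22 by 2.23 ± 0.17 and H2-Q6 by 2.09 ± 0.22 (log2) with LX-A1656. With LX-A2003 H2-Q6 rose by 1.20, H2-Q7 by 0.85 and H2-T22 by 0.74, and with LX-A3928 H2-Q6 rose by 1.04, Psmb8 by 0.56 and H2-T22 by 0.56. These genes belong to a family of close copies, so reads may be split among them.

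At 168 h 6 of the 18 class I genes rose and 7 fell with LX-A1656, where 34.1% of all genes rose and 29.7% fell. With LX-A2003 11 rose and 3 fell (29.8% and 25.3% of all genes), and with LX-A3928 12 rose and 1 fell (27.3% and 20.7%), the last count being 3 without LX-A3928 replicate 3. The medians were -0.07, 0.54 and 0.68, beside 0.10, 0.04 and 0.08 over all genes. With LX-A1656 H2-Q4 (2.34), H2-M3 (2.12) and H2-T22 (1.38) rose. The following were picked once their values had been seen: the immunoproteasome subunits Psmb9 (-0.52) and Psmb10 (-0.76), the proteasome activator Psme1 (-1.04), the trimming peptidase Erap1 (-1.12) and the chaperone Calr (-1.18) fell with LX-A1656. Psmb9 and Psmb10 were no longer called with library totals. With library totals 9 rose and 3 fell with LX-A1656, with a list median of 0.40 beside 0.56 over all genes. Psmb8, the other immunoproteasome subunit, rose with LX-A1656 at 72 h (1.41) and was at -0.21 (adjusted p = 0.217; 0.27 with library totals) at 168 h, when it was 0.68 with LX-A2003 and 0.79 with LX-A3928, both called.

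Of 18 listed class II pathway genes, 13 were tested. At 24 h edgeR called 0 (4, 2 and 1 at an unadjusted p under 0.05, and 0 by DESeq2), at 72 h 7, 2 and 0 rose, and at 168 h 11, 9 and 9 rose, with 0 lower at any time. Of all genes 24.7%, 5.48% and 4.47% rose at 72 h and 34.1%, 29.8% and 27.3% at 168 h. The 168 h medians of the list were 1.73, 1.50 and 1.10, beside 0.10, 0.04 and 0.08 over all genes, and with library totals 13, 13 and 10 rose. Ifi30, a lysosomal thiol reductase, rose by 2.97 ± 0.14, 2.75 ± 0.14 and 2.17 ± 0.14 (log2) for LX-A1656, LX-A2003 and LX-A3928, and Lgmn, a lysosomal peptidase, by 2.28, 1.58 and 1.10. Cd40, a co-stimulatory receptor, rose by 5.26, 4.50 and 3.99. For these 3 genes the fold change was highest with LX-A1656, whereas that of Ciita was lowest with it, and the difference between genes was not tested. Rfx5, which binds the X box, rose with LX-A1656 at 72 h by 2.02 ± 0.18 and at 168 h by 0.60, 0.70 and 0.73 with the 3 oligonucleotides. Its partner Rfxank, chosen after its values were seen, was not called in any of the 9 comparisons, the furthest from 0 being -0.38.

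Of 16 listed interferon signalling genes, 13 were tested. At 24 h 1 rose with LX-A1656 (Irf9, 0.66, adjusted p = 0.00463), 0 with LX-A2003 and 1 with LX-A3928 (Irf1, 0.80, adjusted p = 0.00257). DESeq2 called 2, 1 and 1, and 2, 4 and 3 had an unadjusted p under 0.05. At 72 h 9, 5 and 4 rose (24.7%, 5.48% and 4.47% of all genes), with list medians of 1.58, 0.30 and 0.31 beside 0.05, 0.02 and 0.02. Cxcl10, a chemokine induced by interferon, rose by 5.41 ± 0.29, 2.53 ± 0.27 and 1.34 (log2) for LX-A1656, LX-A2003 and LX-A3928. Irf7 rose by 2.81, 1.02 and 0.89 and Irf9 by 1.68, 0.98 and 0.60. At 168 h 8, 9 and 9 rose (34.1%, 29.8% and 27.3% of all genes) and 1, 0 and 0 fell (29.7%, 25.3% and 20.7%), with list medians of 0.59, 0.77 and 1.04 beside 0.10, 0.04 and 0.08. Cxcl10 was then at 1.48, 2.59 ± 0.28 and 2.73 ± 0.28, lowest with LX-A1656, where it had been highest at 72 h. The LX-A2003 and LX-A3928 values differed by less than either SE. Irf8 rose by 2.64, 2.92 and 2.32.

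Markers of the cells that carry class II molecules were higher at 168 h for some cell types and mixed at 72 h. The 9 dendritic cell markers summed to 6.66 to 12.7 CPM in PBS livers at 168 h and to 14.9 to 28.7, 26.6 to 35.5 and 21.8 to 31.0 CPM for LX-A1656, LX-A2003 and LX-A3928, without overlap. Of 6 tested, 4 rose with each (3 with LX-A3928 without its replicate 3), and 0 of the 9 were at 0 in any group at that time. Of all genes 34.1%, 29.8% and 27.3% rose at 168 h, and 29.7%, 25.3% and 20.7% fell. The markers named singly here were chosen after their values were seen. Zbtb46, a defining marker of classical dendritic cells, was not called at 168 h (0.10, -0.21 and 0.10). The 7 monocyte and macrophage markers summed to 102 to 137 CPM in PBS livers and to 875 to 1334, 597 to 825 and 403 to 480 CPM, with 6, 7 and 6 of 7 higher. Among them, Cd68 rose by 4.25, 3.73 and 3.03. The 6 Kupffer cell markers summed to 212 to 236 CPM with PBS and to 373 to 494, 444 to 589 and 368 to 599 CPM, with 4, 4 and 5 of 6 higher (3 with LX-A3928 without its replicate 3) and 1, 0 and 0 lower.

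The order of these sums across oligonucleotides was not one order. Monocyte and macrophage sums ran from LX-A1656 down to LX-A3928, whereas the means of the dendritic cell sums (29.7 CPM) and the Kupffer cell sums (522 CPM) were highest with LX-A2003. For both cell types the LX-A2003 and LX-A3928 libraries overlapped. Among the well-counted members at 168 h, the group means of H2-Aa, Cd74, Ciita and H2-D1 were highest with LX-A2003. Those of H2-K1, B2m and Tap1 were highest with LX-A3928, Tap1 only barely (40.7 against 40.5 CPM with LX-A2003). No member was called between LX-A3928 and LX-A2003. B cell sums did not follow: 5 markers summed to 2.96 to 5.33 CPM with PBS and to 3.10 to 7.27, 2.42 to 4.18 and 3.56 to 4.22 CPM, overlapping throughout. The single B cell markers moved in opposite directions: of 3 tested, 1 was higher with each oligonucleotide and 1, 2 and 0 were lower. Of all genes 34.1%, 29.8% and 27.3% rose at 168 h and 29.7%, 25.3% and 20.7% fell, so counts of 1 of 3 were close to the share. Cd22 was at 1.67, 1.53 and 1.12 (log2). Pax5 was at -2.70 with LX-A1656 and -3.41 with LX-A2003, and Cd79b at -2.14 with LX-A2003. At 72 h the Kupffer sums were 197 to 226 CPM with PBS and 177 to 197, 216 to 246 and 203 to 288 CPM, with 2, 0 and 1 of 6 markers higher and 2, 0 and 0 lower. Of all genes 24.7%, 5.48% and 4.47% rose at 72 h, and 23.4%, 6.55% and 5.33% fell. The dendritic sums were then 9.62 to 11.5 CPM with PBS and 12.6 to 20.0, 13.0 to 14.5 and 10.5 to 13.8 CPM, with 2, 1 and 0 of 6 higher. The monocyte and macrophage sums were then 96.0 to 116 CPM with PBS and 249 to 458, 136 to 145 and 109 to 156 CPM. Of the 9 dendritic markers, Cd209a was at 0 in the LX-A2003 group at 72 h. T and NK cell markers rose in 4, 0 and 0 of 6 at 72 h. At 168 h 2, 4 and 3 of 6 rose, beside 34.1%, 29.8% and 27.3% of all genes, so the LX-A1656 count was close to the share. Klrb1c was at 0 in all groups of that time except LX-A1656. Sinusoidal endothelial sums were lower at each time. Their means were 158, 252 and 246 CPM at 24 h (299 with PBS) and 70.5, 163 and 161 CPM at 72 h (305 with PBS). At 168 h the sums were 319 to 329 CPM with PBS and 90.9 to 120, 121 to 147 and 137 to 187 CPM. With each oligonucleotide 5 of 6 of these markers were then lower and 1 was higher. Hepatocyte sums were 49362 to 66865 CPM with PBS and 26310 to 41062, 24482 to 30540 and 22873 to 77574 CPM. The part of any of these cell types in the members' changes was not tested.

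**Figure D5:**
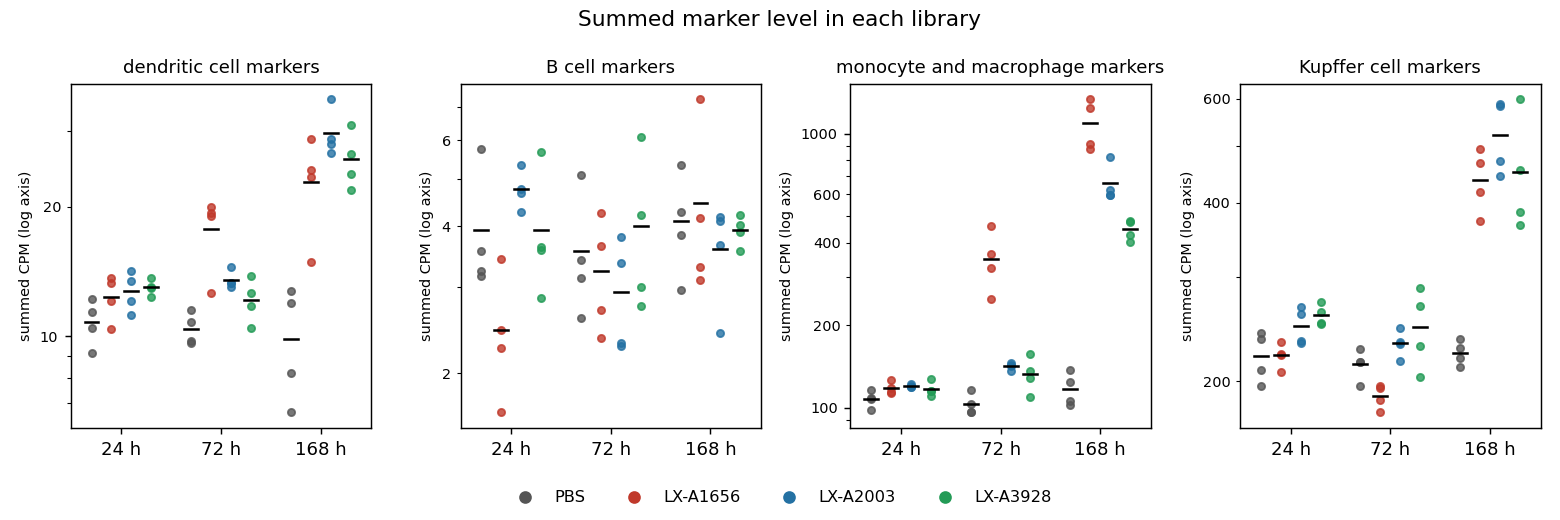
Summed CPM of 9 dendritic cell, 5 B cell, 7 monocyte and macrophage, and 6 Kupffer cell markers in each library (points) with group means (bars), on a log axis, by time and treatment. At 168 h all but the B cell sums lie above PBS with each oligonucleotide, with LX-A1656 highest for monocyte and macrophage markers and LX-A2003 highest for dendritic cell markers.

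Ordered by mean level, the 12 groups formed nearly continuous series. For H2-Aa the 3 groups at 168 h came first, then the 3 at 72 h, with the 24 h groups and PBS below. Cd74 had the same blocks. Among the 7 well-counted members, 2 pairs of neighbours did not overlap and differed by more than the sum of their SDs: Ciita between LX-A3928 at 168 h and at 72 h, and H2-D1 between LX-A1656 and LX-A2003 at 72 h. H2-K1 was highest with LX-A3928 at 168 h, and Tap1 with LX-A1656 at 72 h.

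The genes whose log2 levels followed a member most closely over the 48 libraries are given as descriptions, since the libraries share treatments and depth. For H2-Aa they were Cd52 (Pearson r = 0.92), Pttg1 (0.92), Plpp2 (0.91) and Cd83 (0.91). For H2-K1 they were Tmem176b (0.96), Aaas (0.96), H2-Q7 (0.95) and Trip6 (0.94), and for Tap1 Shisa5 (0.95), Tapbp (0.95), Tmbim1 (0.94) and Slc48a1 (0.94). For Cd74 they were Plxnb1, Dqx1, Siglecf and Slc13a5 (0.89 each), and for B2m Calm2 (0.91), Vmp1 (0.89), Pfdn4 (0.87) and Tbca (0.86). Among the members, r was 0.92 for H2-Aa with Cd74, 0.91 for H2-K1 with H2-D1 and 0.89 for H2-D1 with Tap1. It was 0.55 for Cd74 with B2m.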

How the data were processed

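Liver RNA was extracted in TriPure after bead homogenization and sequenced through the Ion AmpliSeq panel for the mouse transcriptome, per the labels' protocols. The authors deposited 1 table of whole-number read counts per gene for the 48 libraries, and no column lacked a sample. The aligner, counter and genome build used were not given in the sources used here. Counts were tested with edgeR 4.0.16 (R 4.3.3): filterByExpr kept 12672 of 23930 genes (at least 99.891% of each library's counts), trimmed-mean scaling, 12 group means over all 48 libraries, and the robust quasi-likelihood F test with 36 residual degrees of freedom. P-values were adjusted by Benjamini-Hochberg over all tested genes, and 26 comparisons were made. SE is the log2 fold change over the square root of F. CPM used the same scaling, and correlations used log2 CPM with a prior count of 2. The scripts were tested on simulated data. Replicates differed beyond sampling noise (chi-square per degree of freedom 6.08 to 232), so none was merged.

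The members and gene lists were chosen with earlier results of these data known. From each pathway list up to 3 called genes with the smallest p were named per comparison with PBS, and others are stated as chosen later. Of the listed symbols, those without a row were not analysed here. Alternatives were DESeq2 1.42.0, library totals, no filter, only the compared groups, the replicate number as a block, and each library left out. Promoters came from RefSeq (GRCm38.p6), 6 members matching, and gene positions from GENCODE vM21. The dispersion was a common coefficient of variation of 0.211. Intervals on count ratios are exact at 95% and cover counting error only.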

Additional observations from a re-analysis of the deposited data

Results flagged for a closer look

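In 8 of 84 groups of 4 libraries, the highest or lowest library stood apart by Dixon's criterion, where about 1 in 20 would be expected by chance. For B2m they were PBS replicate 3 at 24 h (2521 CPM), and LX-A3928 replicate 3 at 24 h (2408 CPM), replicate 4 at 72 h (4514 CPM) and replicate 3 at 168 h (11063 CPM). The last 2 of these are the libraries with the highest hepatocyte sums of their groups. The others were Cd74 in LX-A3928 replicate 1 at 24 h (99.0 CPM), Ciita in PBS replicate 4 at 24 h (2.04 CPM), H2-K1 in LX-A1656 replicate 4 at 168 h (1018 CPM) and H2-K1 in LX-A2003 replicate 2 at 24 h (619 CPM).

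The effect of an oligonucleotide against PBS differed between times for 18 combinations of member and interval, by the test of the difference itself (edgeR, Benjamini-Hochberg, adjusted p under 0.05). For LX-A1656 from 24 to 72 h the differences were 1.52 for Tap1, 1.21 for H2-K1, 0.95 for H2-D1, 0.92 for H2-Aa and 0.68 for Cd74. From 72 to 168 h they were -1.26 for Tap1 and -0.64 for H2-K1. For LX-A2003 from 72 to 168 h they were 2.26 for Ciita, 1.40 for Cd74, 1.28 for H2-Aa, 0.93 for H2-D1 and 0.65 for H2-K1. For LX-A3928 the value was 1.14 for H2-Aa from 24 to 72 h, and from 72 to 168 h the values were 1.56 for Ciita, 1.04 for H2-D1, 0.87 for H2-Aa, 0.81 for Cd74 and 0.76 for H2-K1.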

How the results depend on the processing

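DESeq2 and the replicate number as a block left the number of called members the same or nearly so in each of the 26 comparisons. With the replicate block the members called at 168 h were again 6, 7 and 8. Numbers did not pair the libraries: the mean correlation of deviations was -0.00666 for the same number and 0.0029 for different numbers, and 12 of 48 libraries correlated best with their own number. Neither the block nor DESeq2 changed the call of any of the 105 single values of members that the text prints.

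The counts listed next are those that moved most in proportion, and smaller moves are not all listed. With library totals the called members were 1 in place of 2 for LX-A2003 against PBS at 72 h, 5 in place of 3 for LX-A3928 against LX-A1656 at 72 h, 1 in place of 0 for LX-A3928 against LX-A2003 at 168 h, and 1 in place of 2 for the LX-A1656 effect at 168 h minus that at 72 h. Counts against PBS also grew with library totals. B2m was added with LX-A1656 at 72 and 168 h and with LX-A2003 at 168 h, and Tap1 with LX-A1656 at 168 h. With only the compared groups the called members were 5 for LX-A2003 against PBS at 72 h, 1 for LX-A3928 against LX-A1656 at 24 h, 1 for LX-A1656 at 168 h minus 72 h, 1 in place of 0 for LX-A2003 at 72 h minus 24 h, and 3 in place of 5 for LX-A3928 at 168 h minus 72 h. At 24 h that setting called 803, 754 and 1435 genes in place of 363, 265 and 413, and 0 members against PBS. With no filter the LX-A1656 count at 168 h minus 72 h was 1. The cause was not tested.

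Leaving out 1 library gave 1 to 2 members for LX-A2003 and 2 to 3 for LX-A3928 against PBS at 72 h. It gave 0 to 1 for LX-A3928 against LX-A2003 at 168 h and 1 to 2 for LX-A1656 at 168 h minus 72 h. For LX-A3928 it gave 0 to 1 at 72 h minus 24 h and 4 to 5 at 168 h minus 72 h. Uncalled log2 values near 0 changed sign: H2-K1 with LX-A1656 at 24 h (-0.053 to 0.073), Tap1 with LX-A2003 at 24 h (-0.15 to 0.045), H2-D1 with LX-A3928 at 24 h (-0.050 to 0.047, and -0.018 with library totals), Tap1 with LX-A3928 at 72 h (-0.022 to 0.23), B2m with LX-A1656 at 168 h (-0.035 to 0.34), and, for LX-A3928 against LX-A2003 at 168 h, H2-D1 (-0.15 to 0.067) and Tap1 (-0.21 to 0.20, and -0.066 with library totals). The list counts without single libraries and under other scalings were chosen after seeing the data. Few counts limit H2-Ab1, H2-Eb1 and Nlrc5 at this depth.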
